A study of Mus musculus with 69 samples.

Results

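Lymphocytes transduced with a retrovirus carrying constitutively active STAT5A were compared with lymphocytes that received the empty vector. The comparison rests on 4 of the 69 samples of the series, chosen by their titles: 2 libraries titled S5a RV and 2 titled Ctl RV, of which 1 Ctl RV title carries no number and is called Ctl RV 1 here. Both groups are labelled as CD8+ T cells of AAB mice, which lack both copies of Stat5a and 1 copy of Stat5b (Stat5a-/- Stat5b+/-). According to the methods of the study, mice were 8 to 16 weeks old, naive CD8+ cells were sorted from lymph nodes and spleen, and they were activated for 24 h on plate-bound antibodies to CD3 and CD28. They were then transduced with MigR1 virus, which marks transduced cells with GFP, cultured for 48 h with human IL-2, and sorted as viable GFP+ cells. The S5a RV virus carried a mutant of mouse Stat5a that is active without cytokine, and the Ctl RV virus carried no insert before the GFP cassette. The experiment asked whether returning STAT5A to cells that have none of their own moves genes tied to STAT5A and not genes tied to STAT5B.

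STAT5A and STAT5B are closely related transcription factors that sit downstream of cytokine receptors sharing the common gamma chain, such as those for IL-2, IL-7 and IL-15. Janus kinases bound to the receptors phosphorylate STAT5 on a tyrosine, after which it pairs up, enters the nucleus and binds DNA at palindromic sites. In T cells and NK cells the pathway is known for survival through BCL-2, for the loading of lytic granules with granzymes and perforin, and for feedback inhibitors of the SOCS family.

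Transcripts of the 4 libraries did not match the labelled cell type. Cd8a, the alpha chain of the CD8 coreceptor, stood at 1.39 and 2.27 CPM (a gene's counts relative to all counts on genes of its library) in the S5a RV libraries 1 and 2, and at 3.17 and 2.67 CPM in Ctl RV 1 and 2. The 16 libraries of AAB CD8+ cells in the other CD8 table of the series held 1020 to 2000 CPM. They mix naive, central memory and effector memory cells, without cytokine or cultured with IL-7 or IL-15. The methods name no activating antibodies and no virus for them. The WT and BBA (Stat5a+/- Stat5b-/-) CD8+ libraries used below cover the same cell states and cytokines. Cd3e, a chain of the T cell receptor complex, was at 2.79 and 9.07 CPM in S5a RV and at 14.8 and 14 CPM in Ctl RV, against 336 to 556 CPM in those 16 libraries. Transcripts of NK cells were abundant instead. Ncr1, which encodes the activating NK receptor NKp46, stood at 1120 and 1310 CPM in S5a RV and at 1450 and 1420 CPM in Ctl RV, where the AAB CD8+ libraries reached at most 2.54 CPM. Tyrobp, the DAP12 signalling adaptor of NK receptors, was at 596 to 689 CPM over the 4 libraries against 1.64 to 8.9 CPM. Klrk1, which encodes NKG2D, was at 846 to 944 CPM against 9.47 to 73.5 CPM. The 8 NK markers summed to 5190 and 5310 CPM in S5a RV and to 5000 and 4770 CPM in Ctl RV, against 134 to 508 CPM in the AAB CD8+ libraries. Within that sum Klre1 was called higher in S5a RV, and Klrb1c stood at 590 and 503 CPM in S5a RV and at 351 and 234 CPM in Ctl RV. Among markers of other lineages, Zbtb7b, which encodes a factor of the CD4 lineage, was at 127 to 163 CPM against 0.578 to 19.2 CPM in the AAB CD8+ libraries. The other 2 markers of that lineage were low: Cd4 was at 7.2 and 8.08 CPM in S5a RV and at 20.2 and 27 CPM in Ctl RV, against 0.347 to 12 CPM, and Cd40lg at 0.501 to 2.01 CPM, within the AAB CD8+ range of 0 to 5.14 CPM. The cells are therefore described below as the transduced cells, by the titles of their libraries and not as CD8+ T cells.

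**Figure D1:**
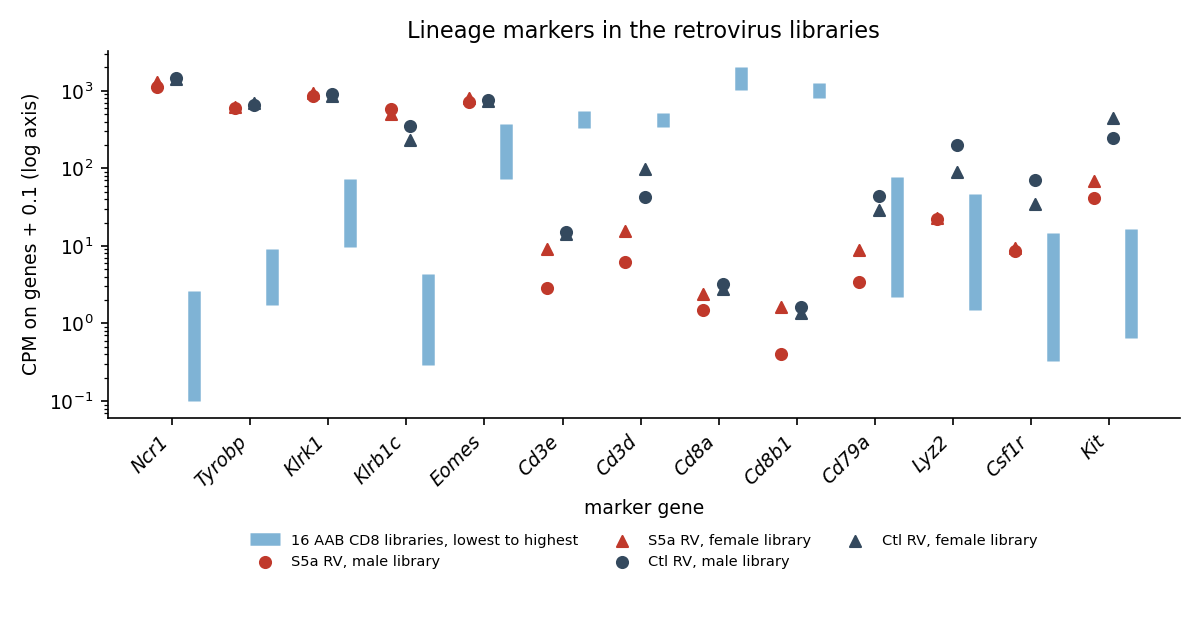
CPM on genes plus 0.1 (vertical log axis) of 13 lineage markers (horizontal axis) in each retrovirus library, with bars for the lowest to highest value over 16 AAB CD8+ libraries. NK markers from Ncr1 to Eomes lie above the bars in all 4 retrovirus libraries and Cd3e, Cd3d, Cd8a and Cd8b1 lie below them, while Cd79a, Lyz2, Csf1r and Kit are lower in S5a RV than in Ctl RV.

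Small amounts of transcripts from other cell types differed between the groups. All 6 B cell markers were called lower in S5a RV: Cd79a, a signalling chain of the B cell receptor, stood at 3.33 and 8.62 CPM in S5a RV and at 44.3 and 28.7 CPM in Ctl RV. The 6 markers summed to 10.2 and 26.6 CPM in S5a RV and to 155 and 97.2 CPM in Ctl RV. Of 7 myeloid markers tested, 5 were called lower (71.4%, against 4.42% of all genes tested). Lyz2, the lysozyme of macrophages and neutrophils, stood at 22.4 and 23.1 CPM in S5a RV and at 199 and 90.2 CPM in Ctl RV. The 8 myeloid markers summed to 82.9 and 80.8 CPM against 451 and 225 CPM. The 8 T cell markers summed to 88.8 and 158 CPM against 360 and 422 CPM, and 4 of 7 tested were called lower (57.1%). No marker of these lists was at 0 in all 4 libraries. Fewer cells of a type and less RNA per cell cannot be told apart in bulk libraries. Between the groups these sums go the same way as every gene named below as lower in S5a RV, which holds for any lower gene. Within Ctl RV they differ: the B cell and myeloid sums were higher in Ctl RV 1 and the T cell sum in Ctl RV 2. Some of the lower genes were higher in Ctl RV 1 and others in Ctl RV 2. The part of the sums in those results was not tested.

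The libraries held 11020965 to 16516525 counts on genes, and 16039 to 17747 genes had at least 1 count. Each group held 1 male and 1 female library by Xist (10.9 and 16.5 CPM against 957 and 987 CPM) and the Y-linked Ddx3y (138 and 142 CPM against 0.181 and 0.25 CPM), with the male library numbered 1 in both groups. Libraries of a group correlated at 0.985 (S5a RV) and 0.976 (Ctl RV) over log2 CPM of the genes tested, and libraries of different groups at 0.941 to 0.957. The study describes its replicates as biological. No label says whether the S5a RV and Ctl RV libraries came from the same mice, and with 2 libraries a group a permutation of labels cannot give a two-sided p below 0.333, so all tests are from 1 model across genes and their p-values measure only the spread between these libraries.

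Stat5a (chr11:100859351-100885169, plus strand, GRCm38), the gene carried by the virus, was higher in the S5a RV libraries. It stood at 59.6 and 59.9 CPM in S5a RV and at 8.42 and 3.26 CPM in Ctl RV, a 10.3-fold difference (log2 fold change 3.36 ± 0.38 SE, adjusted p = 0.00653, from edgeR's quasi-likelihood F-test, adjusted over all genes by Benjamini-Hochberg). Stat5a and Stat5b are close paralogs, and short reads of one can be counted for the other. The level of Stat5a in S5a RV lay within that of the 16 WT CD8+ libraries (32.1 to 102 CPM) and above all 16 AAB CD8+ libraries (0.972 to 5.2 CPM). Ctl RV 1, at 8.42 CPM, also lay above the AAB range, and Ctl RV 2 lay within it. Stat5b (chr11:100780731-100850724, minus strand), whose sequence the virus does not carry according to the methods, was higher as well. It stood at 147 and 130 CPM in S5a RV and at 61.9 and 74.5 CPM in Ctl RV, a 2.07-fold difference (log2 fold change 1.05 ± 0.13 SE, adjusted p = 0.00808). The AAB CD8+ libraries held 77.8 to 145 CPM of Stat5b and the WT CD8+ libraries 156 to 356 CPM, so the Ctl RV libraries lay below the AAB range, S5a RV 2 within it and S5a RV 1 between the AAB and WT ranges. The 16 BBA CD8+ libraries, of a genotype without an intact Stat5b allele, still held 48.3 to 97.5 CPM of Stat5b. Both Ctl RV libraries lay within that range. Stat5a and Stat5b were the only 2 genes of the other CD8 table whose levels in all 16 WT libraries did not overlap those in all 16 AAB libraries.

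Another gene of the same chromosome differed in the same way. C130046K22Rik, a non-coding transcript 2813 kb beyond Stat5a (chr11:103697724-103722832), stood at 12.2 and 10.6 CPM in S5a RV and at 1.16 and 1.09 CPM in Ctl RV (10.2-fold, adjusted p = 0.00484). Its median was 8.62 CPM over the WT and 2.3 CPM over the AAB CD8+ libraries, with overlapping ranges. Of 138 tested genes within 5 Mb of Stat5a on either side, 14 were called (10.1%, against 6.63% of all genes tested), 8 higher and 6 lower. The higher ones include Stat5a, Stat5b and C130046K22Rik, whose differences led to this window, so the share is raised by the choice of window. Reads of the virus and reads of the chromosomal Stat5a cannot be told apart in gene counts, and whether the 2 groups also differed in the Stat5 alleles of their cells was not tested. Directions below are therefore those of libraries titled S5a RV against libraries titled Ctl RV.

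**Figure D2:**
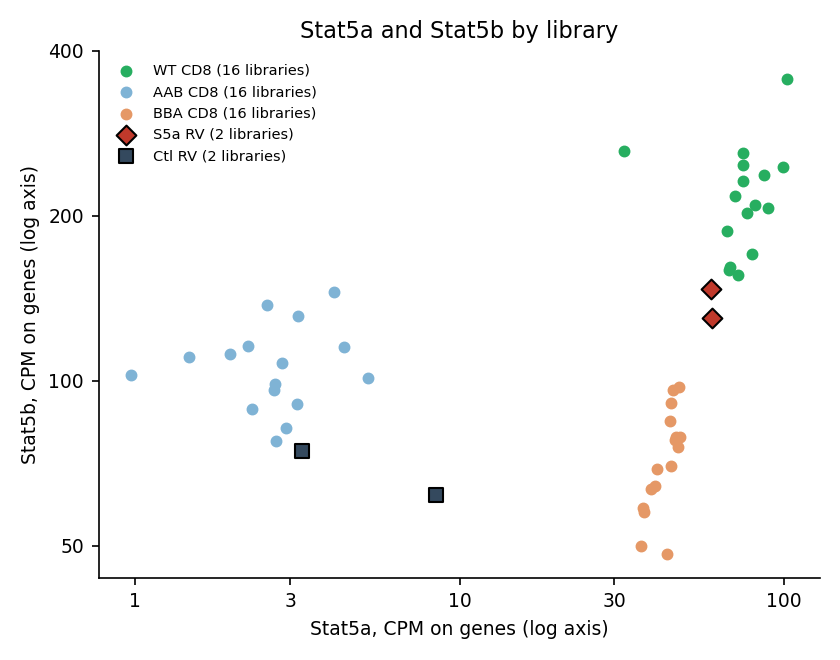
Stat5a (horizontal log axis) and Stat5b (vertical log axis) in CPM on genes, 1 point for each library. The 2 S5a RV libraries lie at 59.6 and 59.9 CPM of Stat5a, within the WT range of Stat5a and below the WT range of Stat5b. Ctl RV 1 lies above the AAB range of Stat5a at 8.42 CPM, and Ctl RV 2 within it at 3.26 CPM.

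Across all genes, 691 of 10419 tested (6.63%) differed by more than 1.5-fold at an adjusted p under 0.05. Of these, 230 (2.21%) were higher and 461 (4.42%) lower in S5a RV, and the median log2 fold change over all genes tested was 0.0015. More than 4-fold differences were found for 42 of the higher and 200 of the lower genes. All 691 had no overlap between the libraries of the groups, as did 50.9% of all genes tested. By that lack of overlap alone, all 691 also had the same direction in the male and in the female pair of libraries. The calls depended on the first S5a RV library more than on any other: without it 82 genes were higher and 162 lower, and 55 of the 116 called genes named by rule lost their call without at least 1 library. Values below are CPM after TMM normalization, given for S5a RV 1 and 2 and then for Ctl RV 1 and 2.

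**Figure D3:**
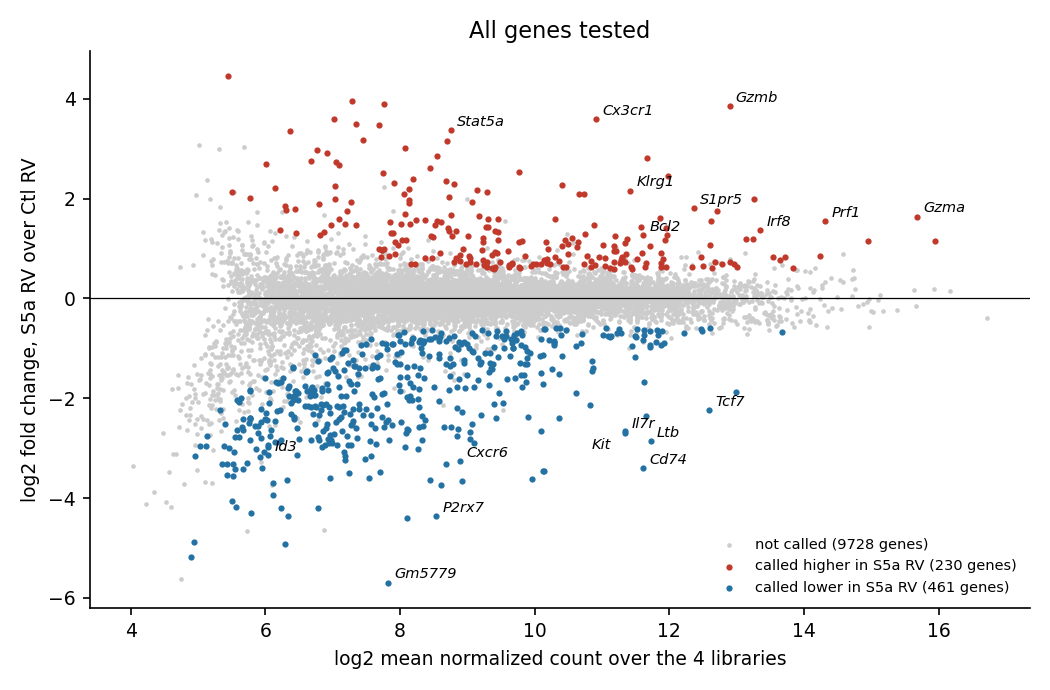
Log2 fold change of S5a RV over Ctl RV (vertical axis) against log2 mean normalized count (horizontal axis) for 10419 genes, with the 230 genes called higher in red and the 461 called lower in blue. Gzmb, Cx3cr1 and Stat5a are labelled near the top and Gm5779 and P2rx7 near the bottom.

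Granzymes A and B and perforin, the main cargo of lytic granules, were higher in S5a RV. Of 13 cytotoxic effector genes tested, 5 were higher and 3 lower (61.5%, against 6.63% of all genes tested). The list had a median log2 fold change of 0.54. Gzmb (chr14:56258838-56262260, minus strand), which encodes granzyme B, the protease that cleaves caspases in target cells, stood at 1380 and 800 CPM in S5a RV and at 63.4 and 87.1 CPM in Ctl RV. That is a log2 fold change of 3.86 ± 0.31 SE (adjusted p = 0.00383). Gzma, which encodes granzyme A, was at 5820 and 6340 CPM against 2030 and 1870 CPM (log2 fold change 1.64 ± 0.13 SE, adjusted p = 0.00383). Prf1, the pore-forming perforin, was at 2770 and 1870 CPM against 803 and 779 CPM (log2 fold change 1.55 ± 0.20 SE, adjusted p = 0.00923). In each of these 3 genes both S5a RV libraries lay above both Ctl RV libraries, with the male S5a RV library highest for Gzmb and Prf1. All 691 called genes, and 50.9% of all genes tested, likewise had no overlap between the groups. Fasl, the death ligand for FAS, was at 180 and 144 CPM against 72.7 and 85.7 CPM, and Serpinb9, a granzyme B inhibitor that shields the killer cell, was at 709 and 583 CPM against 361 and 256 CPM.

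Other members of the granule and death receptor set went the opposite way or were not called. Gzmm, which encodes granzyme M, was lower in S5a RV at 11.3 and 8.32 CPM against 31.1 and 27.7 CPM. Tnfsf10, the death ligand TRAIL, was at 20.8 and 25 CPM against 58.3 and 112 CPM, and Lamp1, a membrane protein of lysosomes and lytic granules, at 110 and 141 CPM against 192 and 236 CPM. Nkg7, a regulator of granule release, stood at 1510 and 1480 CPM against 1080 and 971 CPM and missed the threshold (adjusted p = 0.0606). Granzymes C, D, E, F and G were too low to be tested. Without the first S5a RV library Serpinb9 (adjusted p = 0.115), Tnfsf10 (adjusted p = 0.0741) and Lamp1 (adjusted p = 0.178) lost their calls, and Lamp1 also without Ctl RV 2 (adjusted p = 0.0642).

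CX3CR1 and S1PR5 were the homing receptors called higher, and several receptors for tissue or lymph node chemokines were lower. Of 28 homing and adhesion receptors tested, 2 were higher and 7 lower (32.1%, against 6.63% of all genes tested). Cx3cr1 (chr9:119901616-120069879, minus strand), the fractalkine receptor found on mature cytotoxic lymphocytes, stood at 150 and 397 CPM in S5a RV and at 20.3 and 25 CPM in Ctl RV (log2 fold change 3.59 ± 0.45 SE, adjusted p = 0.00831). S1pr5, a sphingosine 1-phosphate receptor that NK cells use to leave bone marrow and lymph nodes, was at 735 and 518 CPM against 166 and 191 CPM (log2 fold change 1.81 ± 0.20 SE, adjusted p = 0.0059). Cxcr6, a receptor for CXCL16 in liver and other tissues, was lower at 6.03 and 7.86 CPM against 41.1 and 90.3 CPM (log2 fold change -3.25 ± 0.39 SE, adjusted p = 0.00773). Cxcr3, which binds chemokines induced by interferon, was at 41.1 and 60.6 CPM against 179 and 200 CPM. The remaining lower members were Ccr6, Gpr183, Ccr7, Cxcr5 and Itgb3, with log2 fold changes of -4.05 to -1.77, and several of these receptors are also used by B cells. Ccr6 lost its call without S5a RV 2 (adjusted p = 0.0538) and Cxcr5 without S5a RV 1 (adjusted p = 0.0524).

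Klrg1 and Klre1 were the receptors of NK cells called higher. Of 27 NK receptors and adaptors tested, 2 were higher and 1 lower (11.1%, against 6.63% of all genes tested), DESeq2 called 5 higher and 1 lower, and the median log2 fold change was 0.03. Klrg1, an inhibitory lectin receptor of terminally matured NK and T cells, stood at 341 and 346 CPM in S5a RV and at 64.6 and 89.1 CPM in Ctl RV (log2 fold change 2.16 ± 0.17 SE, adjusted p = 0.00383). Klre1, another lectin receptor, was at 417 and 325 CPM against 230 and 201 CPM, and Cd226, the activating receptor DNAM-1, was lower at 73.7 and 90.2 CPM against 141 and 176 CPM. Klrb1c, which encodes the NK1.1 antigen, stood at 593 and 512 CPM against 352 and 231 CPM and missed the threshold (adjusted p = 0.0506). Klrk1 was at 852 and 961 CPM against 919 and 856 CPM. Without S5a RV 1 the calls of Klre1 (adjusted p = 0.149) and Cd226 (adjusted p = 0.0812) were lost, and that of Klre1 also without Ctl RV 2 (adjusted p = 0.0892). Of 12 inhibitory checkpoint genes tested, Klrg1 and Lair1 were higher and Btla, Cd160, Cd200r1 and Pdcd1lg2 lower (50%, against 6.63% of all genes). Cd160, a receptor for HVEM on NK and T cells, stood at 46.7 and 56.1 CPM against 143 and 308 CPM. Of these, each except Klrg1 lost its call without S5a RV 1 (adjusted p = 0.0706 to 0.138), and Lair1, Cd200r1 and Pdcd1lg2 also without S5a RV 2 (adjusted p = 0.0673 to 0.135) or Ctl RV 2 (adjusted p = 0.066 to 0.102).

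**Figure D4:**
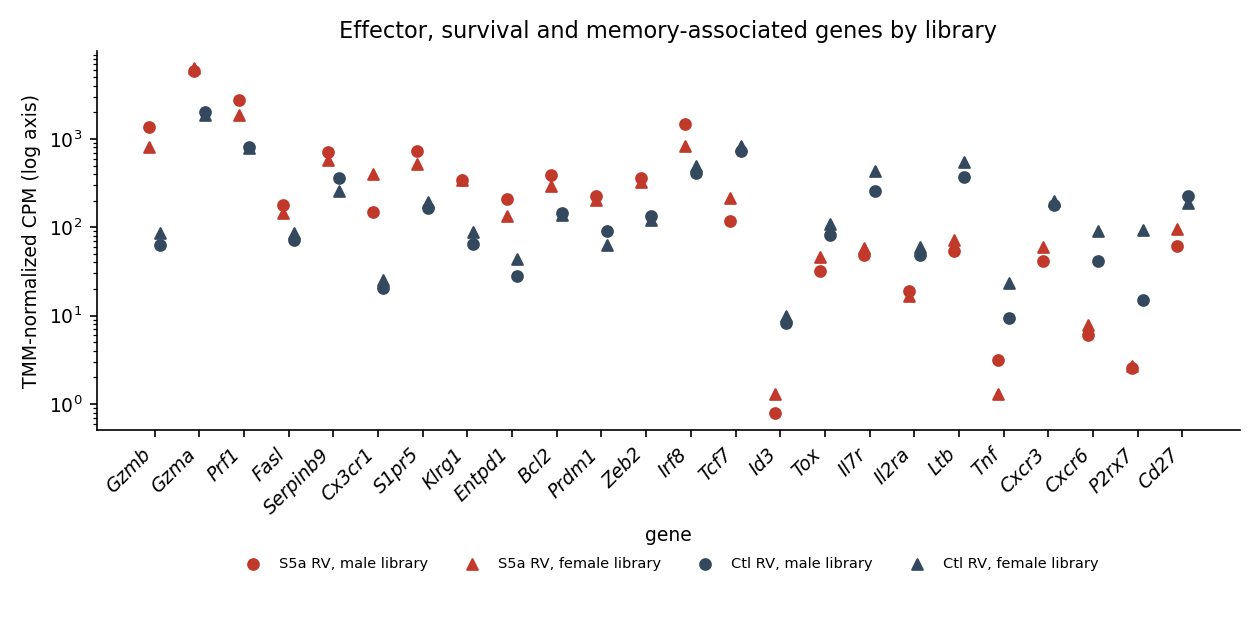
TMM-normalized CPM (vertical log axis) of 24 genes (horizontal axis) in the 2 S5a RV libraries (red) and the 2 Ctl RV libraries (dark), with the male libraries as circles and the female libraries as triangles. From Gzmb to Irf8 both red points lie above both dark points, and from Tcf7 to Cd27 both lie below. The genes shown were picked from the calls, none of which has overlap between the groups.

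Among receptors and kinases upstream of STAT5, most calls were lower in S5a RV. Of 12 common gamma chain receptors and JAKs tested, 5 were lower and 1 higher (50%, against 6.63% of all genes tested). The list had a median log2 fold change of -0.46. Il7r, the IL-7 receptor alpha chain, stood at 48.6 and 58.5 CPM in S5a RV and at 255 and 435 CPM in Ctl RV (log2 fold change -2.69 ± 0.26 SE, adjusted p = 0.00484). Il2ra (chr2:11642807-11693193, plus strand), the high-affinity IL-2 receptor chain CD25 and a STAT5 target in T cells, was at 18.9 and 16.6 CPM against 48.9 and 60.1 CPM (log2 fold change -1.61 ± 0.17 SE, adjusted p = 0.0059). Il4ra was at 58.4 and 46.8 CPM against 118 and 181 CPM, Il21r at 11.9 and 13.2 CPM against 27.8 and 58.2 CPM, and Il9r at or below 0.183 CPM against 3.41 and 5.7 CPM. The shared chains were not called. Il2rb, the beta chain of the IL-2 and IL-15 receptors, stood at 2660 and 2530 CPM against 2990 and 3190 CPM, and Il2rg, the common gamma chain, at 589 and 580 CPM against 525 and 605 CPM. Tyk2, a kinase of interferon and IL-12 receptors, was the only member called higher (526 and 435 CPM against 304 and 314 CPM). Tyk2 lost its call without S5a RV 1 (adjusted p = 0.231), without either Ctl RV library (adjusted p = 0.12 and 0.0975) and with a term for sex (adjusted p = 0.068). Il21r and Il9r lost theirs without S5a RV 1 (adjusted p = 0.119 and 0.0788) or S5a RV 2 (adjusted p = 0.0654 and 0.0505).

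Of 23 other cytokine receptors tested, 1 was higher and 6 lower (30.4%, against 6.63% of all genes tested). Il12rb2, the signalling chain of the IL-12 receptor, stood at 317 and 246 CPM in S5a RV and at 125 and 121 CPM in Ctl RV (log2 fold change 1.20 ± 0.15 SE, adjusted p = 0.00781). Il6st, the gp130 chain shared by IL-6 family receptors, was lower at 10.1 and 12.6 CPM against 37.5 and 56.4 CPM. Csf2rb, the common beta chain of myeloid growth factor receptors, was at 1.22 and 1.02 CPM against 10.9 and 7.1 CPM, beside the lower myeloid markers. Il1r1, Il6ra, Ifngr2 and Il3ra were also lower, and each lost its call without S5a RV 1 (adjusted p = 0.123 to 0.17). Il1r1, Ifngr2 and Il3ra also did so without S5a RV 2 (adjusted p = 0.0641 to 0.135), and Il3ra without Ctl RV 1 (adjusted p = 0.0867). Within the STAT family only Stat5a and Stat5b were called among 7 members. Stat4 stood at 343 and 405 CPM against 509 and 434 CPM (adjusted p = 0.268).

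Genes known as direct targets of STAT5 in lymphocytes went both ways. Of 21 textbook STAT5 targets, 5 were higher and 5 lower, 47.6% of the list against 6.63% of all genes tested, with a median log2 fold change of 0.52. The higher members were Gzmb, Prf1, Bcl2, Bhlhe40 and Ccnd2, and the lower members Lta, Pim2, Il2ra, Socs3 and Myc. Bcl2 (chr1:106538178-106714274, minus strand), which blocks the mitochondrial path to cell death, stood at 386 and 292 CPM in S5a RV and at 146 and 136 CPM in Ctl RV (log2 fold change 1.26 ± 0.16 SE, adjusted p = 0.00831). Ccnd2, cyclin D2, was at 810 and 696 CPM against 491 and 443 CPM. Pim2, a kinase that promotes survival and translation, was lower at 98.5 and 132 CPM against 271 and 463 CPM, and Myc, a regulator of growth, at 44.1 and 34.3 CPM against 67.6 and 65.3 CPM. The feedback inhibitors were mostly not called: Cish stood at 20.2 and 8.69 CPM against 9.69 and 5.04 CPM (adjusted p = 0.29), and Socs2 at 11.6 and 13 CPM against 8.84 and 2.89 CPM (adjusted p = 0.262). Socs3, an inhibitor of gp130 receptors, was lower at 35.6 and 27.6 CPM against 54.8 and 79.8 CPM, the only call among 8 SOCS genes. Pim1 was at 361 and 288 CPM against 197 and 257 CPM (adjusted p = 0.156). When every gene with at least 1 count was tested, Cish passed (adjusted p = 0.000894).

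Leaving out S5a RV 1 ended the calls of Bhlhe40, Ccnd2, Pim2, Myc and Socs3 (adjusted p = 0.0597 to 0.192), while Gzmb, Prf1, Bcl2, Il2ra and Lta passed without any 1 library. Myc and Socs3 also missed the threshold without S5a RV 2 (adjusted p = 0.113 and 0.102), Bhlhe40, Ccnd2 and Myc without Ctl RV 1 (adjusted p = 0.0923, 0.0551 and 0.0594), and Ccnd2 without Ctl RV 2 (adjusted p = 0.136). In the BCL-2 family, 2 of 12 tested genes were called (16.7%, against 6.63% of all genes tested), both higher: Bcl2 and Bcl2l11. Bcl2l11 encodes BIM, an antagonist of BCL-2 that promotes cell death, and stood at 200 and 211 CPM against 131 and 103 CPM. Its call was lost without S5a RV 1 (adjusted p = 0.0684) or S5a RV 2 (adjusted p = 0.0621). Mcl1, on which NK cells depend for survival, was at 600 and 634 CPM against 579 and 556 CPM. Of 14 D cyclins, G1 kinases and CDK inhibitors tested, Cdkn1a, Ccnd2 and E2f2 were higher and none lower (21.4%, against 6.63% of all genes). Cdkn1a, the inhibitor p21, was at 10.8 and 7.95 CPM against 3.18 and 1.98 CPM, and E2f2 at 97.2 and 98.8 CPM against 66.2 and 55.4 CPM. Cdkn1a and E2f2 lost their calls without either S5a RV library (adjusted p = 0.0584 to 0.24), and E2f2 also without Ctl RV 2 (adjusted p = 0.0642).

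Letters of the STAT5 site were looked for in promoters, because STAT5 is known to bind the palindrome TTCNNNGAA. The RefSeq promoters of GRCm38.p6, each 250 bases before to 50 bases after a start site, covered 8019 of the 10419 genes tested, and 8.54% of these genes held at least 1 match, against 8.3% of all promoters in the table. The palindrome reads the same on both strands, so 1 search covers both. Among genes called higher, 18 of 166 with a promoter (10.8%) held it, and among genes called lower 31 of 333 (9.31%), both close to the share over all genes. A match here is letters in a window and not a site shown to be bound. The windows below come from named genes with a match, picked to show granule, cytokine receptor, transcription factor and feedback genes side by side, each shown from 10 bases before to 10 bases after it where the promoter reaches that far, on the strand of the gene, with the palindrome in capitals.
Gzmb, higher, chr14:56262285-56262307: ggcaggagttTTCATAGAAagca
Il12rb2, higher, chr6:67376293-67376321: gttcccttttTTCTCAGAAccgcactaag
Zeb2, higher, chr2:45113408-45113436: agttctccagTTCTGTGAAtggtgtgcac
Irf8, higher, chr8:120736177-120736205: caaaagtgatTTCTCGGAAagagagcgct
Il7r, lower, chr15:9530000-9530028: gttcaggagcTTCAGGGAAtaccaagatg
Ltb, lower, chr17:35194325-35194353: ccttccccagTTCAGAGAAcccaggcatc
Socs3, lower, chr11:117969502-117969530: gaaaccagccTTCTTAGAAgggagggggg
Cish, not called, chr9:107296649-107296677: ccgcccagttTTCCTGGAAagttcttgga
The match of Gzmb lies 37 bases after the RefSeq start site, that of Il7r 142 bases before it and that of Socs3 154 bases before it. For Gzmb the start in the GENCODE coordinates printed earlier is a different one, and the whole window lies before it. The match of Cish begins at its start site. Genes with a match were called higher, called lower or not called.

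BLIMP-1 and ZEB2 were among the transcription factors that were higher, and TCF-1, ID3 and TOX among those that were lower. Of 40 lymphocyte transcription factors tested, 4 were higher and 9 lower (32.5%, against 6.63% of all genes tested). Prdm1, which encodes BLIMP-1, a repressor tied to terminal effector differentiation, stood at 223 and 203 CPM in S5a RV and at 90.6 and 63.2 CPM in Ctl RV (log2 fold change 1.47 ± 0.18 SE, adjusted p = 0.00765). Zeb2, a repressor needed for terminal maturation of NK and CD8+ T cells, was at 359 and 322 CPM against 133 and 121 CPM (log2 fold change 1.43 ± 0.12 SE, adjusted p = 0.00466), and its promoter letters are among those shown above. Irf8 was at 1480 and 829 CPM against 409 and 488 CPM. Tcf7, which encodes TCF-1, a factor of naive, memory and early NK cells, was lower at 118 and 214 CPM against 737 and 822 CPM (log2 fold change -2.24 ± 0.28 SE, adjusted p = 0.00808). Id3, an inhibitor of E proteins, was at 0.792 and 1.29 CPM against 8.22 and 9.82 CPM. Tox (chr4:6686353-6991557, minus strand), a nuclear factor of NK development and of exhausted T cells, was at 32.1 and 46.2 CPM against 82.7 and 109 CPM. Ikzf2, Irf4, Klf4, Rora and Maf were lower as well, with log2 fold changes of -1.73 to -0.81.

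The factors that set NK and type 1 lymphocyte identity were not called. Eomes stood at 726 and 819 CPM in S5a RV and at 764 and 738 CPM in Ctl RV, Tbx21, which encodes T-BET, at 606 and 499 CPM against 385 and 459 CPM (adjusted p = 0.227), and Id2 at 842 and 744 CPM against 492 and 753 CPM. Runx3 was at 422 and 401 CPM against 414 and 445 CPM. Irf8, Tox and Klf4 lost their calls without S5a RV 1 (adjusted p = 0.0685, 0.0585 and 0.0707).

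Secreted factors were called in both directions. Of 18 cytokines and chemokines tested, Ccl9 and Ccl5 were higher and Ltb, Tnf, Lta and Xcl1 lower (33.3%, against 6.63% of all genes). Ccl5, a chemokine that effector lymphocytes store and release, stood at 3470 and 3190 CPM in S5a RV and at 1600 and 1410 CPM in Ctl RV (log2 fold change 1.14 ± 0.14 SE, adjusted p = 0.0078). Ltb, the lymphotoxin beta chain used in lymphoid tissue organization, was lower at 53.7 and 72.2 CPM against 369 and 542 CPM (log2 fold change -2.86 ± 0.23 SE, adjusted p = 0.00383). Tnf was at 3.17 and 1.29 CPM against 9.3 and 23.4 CPM, and Lta, its close relative in the same gene cluster, at 3.66 and 2.59 CPM against 12.1 and 12.5 CPM. Xcl1, a chemokine that NK cells use to attract dendritic cells, was at 74.2 and 78 CPM against 146 and 269 CPM. Ifng, the main effector cytokine of NK cells, stood at 104 and 69.6 CPM against 47.7 and 54 CPM and missed the threshold (adjusted p = 0.0729). Ccl3 and Ccl4 were high in 1 S5a RV library only, at 231 and 222 CPM in the male library against 87.6 and 87.7 CPM in the female one, and were not called. Without S5a RV 1, Ccl9 (adjusted p = 0.131) and Xcl1 (adjusted p = 0.105) lost their calls. Without S5a RV 2, Tnf (adjusted p = 0.0758) and Xcl1 (adjusted p = 0.0627) did.

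Genes of the TNF superfamily were lower in 7 and higher in 1 of 20 tested (40%, against 6.63% of all genes). Cd27, a costimulatory receptor that mouse NK cells lose as they mature, stood at 61.7 and 96.8 CPM in S5a RV and at 225 and 190 CPM in Ctl RV (log2 fold change -1.39 ± 0.21 SE, adjusted p = 0.0155). Ltbr, the lymphotoxin beta receptor, was at or below 0.37 CPM in S5a RV against 5.35 and 8.34 CPM, and Tnfrsf25 and Tnfrsf21 were lower with log2 fold changes of -2.69 and -2.60. Tnfsf8 lost its call without S5a RV 1 (adjusted p = 0.0984) or S5a RV 2 (adjusted p = 0.0751), and Tnfsf10 as given above. Among 12 genes that sense or degrade extracellular ATP, NAD and adenosine, 1 was higher and 3 lower (33.3%, against 6.63% of all genes). Entpd1 (chr19:40612366-40741602, plus strand), which encodes CD39, the enzyme that breaks down extracellular ATP, stood at 211 and 133 CPM against 27.8 and 43.3 CPM (log2 fold change 2.28 ± 0.28 SE, adjusted p = 0.00798). P2rx7 (chr5:122643911-122691432, plus strand), the ATP-gated channel, was lower at 2.56 and 2.68 CPM against 15 and 93.4 CPM (log2 fold change -4.37 ± 0.85 SE, adjusted p = 0.0311). The Ctl RV libraries differed from each other by more for P2rx7 than for the other genes of this list that were called. The P2rx7 call was lost without S5a RV 1 (adjusted p = 0.13) or S5a RV 2 (adjusted p = 0.0788), that of Dpp4 without S5a RV 1 (adjusted p = 0.056) and that of P2rx4 without S5a RV 2 (adjusted p = 0.0822) or Ctl RV 2 (adjusted p = 0.0584).

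Transcripts of the T cell receptor complex were low in all 4 libraries and lower in S5a RV than in Ctl RV. Of 20 tested genes of the T cell receptor, its coreceptors and proximal signalling, 7 were lower and 1 higher (40%, against 6.63% of all genes). The list had a median log2 fold change of -0.79. Cd3g (chr9:44969572-44980431, minus strand) stood at 10.4 and 20 CPM in S5a RV and at 47.8 and 103 CPM in Ctl RV (log2 fold change -2.33 ± 0.43 SE, adjusted p = 0.0268), and Cd3d at 6.09 and 15.9 CPM against 42.3 and 96.4 CPM. Trat1, a transmembrane adaptor of the receptor, was at 0.609 and 0.555 CPM against 7.06 and 14.8 CPM. Cd3g and Cd3d lay below the AAB CD8+ libraries (345 to 669 and 341 to 519 CPM), whereas Trat1 in Ctl RV lay within their range of 2.8 to 18.8 CPM. Cd247, the zeta chain that NK receptors also use, was higher at 257 and 257 CPM against 186 and 153 CPM. The kinases were not called: Lck stood at 890 and 746 CPM against 738 and 795 CPM, and Zap70 at 262 and 205 CPM against 207 and 269 CPM. Without S5a RV 1, Cd3g, Cd3d, Cd28 and Cd247 lost their calls (adjusted p = 0.0848 to 0.155), and Cd247 also without S5a RV 2 (adjusted p = 0.113), without Ctl RV 2 (adjusted p = 0.19) and with a term for sex (adjusted p = 0.0569).

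All 6 MHC class II genes were called lower (100%, against 4.42% of all genes tested), with the largest median difference among the 31 lists (-3.42 on the log2 scale). H2-Aa, the alpha chain of the class II molecule I-A, stood at 5.97 and 17.7 CPM in S5a RV and at 153 and 130 CPM in Ctl RV (log2 fold change -3.62 ± 0.43 SE, adjusted p = 0.00734). Cd74, the invariant chain, was at 28.2 and 55.6 CPM against 482 and 394 CPM, and Ciita, the class II transactivator, at 2.19 and 3.14 CPM against 27.5 and 21.6 CPM. B cell and myeloid markers were lower in the same libraries, by 6.85 and 4.13 times in the ratio of mean summed CPM, and their part in the class II difference was not tested. Kit, the stem cell factor receptor of mast cells, progenitors and immature NK cells, was lower at 41.3 and 68.9 CPM against 250 and 436 CPM (log2 fold change -2.65 ± 0.33 SE, adjusted p = 0.00821), whereas the other 5 mast cell and basophil markers summed to under 10 CPM in each library.

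Lists of DNA replication, mitosis and metabolism held at most 1 call each, and with 8 to 22 genes a list and 6.63% of all genes called these counts do not set them apart. None of 21 DNA replication genes, 20 mitosis genes, 19 ribosome biogenesis genes, 22 glycolysis and pentose phosphate genes, 12 integrated stress response genes, 8 amino acid transporters and 13 NF-kappaB genes was called by edgeR's quasi-likelihood test. Their median log2 fold changes lay between -0.23 and 0.19. At an unadjusted p under 0.05 there were 0, 0, 4, 7, 1, 2 and 4 genes, and DESeq2 called 0, 0, 0, 0, 0, 1 and 2. Mki67, the Ki-67 antigen of cycling cells, stood at 224 and 247 CPM in S5a RV and at 212 and 169 CPM in Ctl RV, and Pcna, the replication clamp, at 204 and 255 CPM against 244 and 215 CPM. Of 22 cholesterol and fatty acid synthesis genes, only Scd1, a fatty acid desaturase, was called (3.17 and 5.55 CPM against 35 and 26.1 CPM). Of 10 hypoxia-induced genes only Egln3 was called, lower, and it lost its call without S5a RV 1 (adjusted p = 0.154), S5a RV 2 (adjusted p = 0.0545) or Ctl RV 2 (adjusted p = 0.0657).

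Interferon-responsive genes called by edgeR were lower in S5a RV. Of 20 type I interferon-stimulated genes tested, Oas1a, Ifih1 and Bst2 were lower (15%, against 4.42% of all genes) and none higher, where DESeq2 called 6 lower and 1 higher, with a median log2 fold change of -0.73. Of 19 genes induced by interferon gamma, Iigp1 and Ciita were lower (10.5%) and none higher. Iigp1, a GTPase directed against intracellular parasites, stood at 0.305 and 0.462 CPM in S5a RV and at 7.83 and 15.4 CPM in Ctl RV (log2 fold change -4.93 ± 0.54 SE, adjusted p = 0.00593). Irf1 was at 325 and 319 CPM against 355 and 443 CPM. The calls of Ifih1 (adjusted p = 0.135) and Bst2 (adjusted p = 0.126) were lost without S5a RV 1, those of Bst2 (adjusted p = 0.0756) and Oas1a (adjusted p = 0.0791) without S5a RV 2 and that of Bst2 without Ctl RV 2 (adjusted p = 0.057). Of 19 immediate early genes and MAPK phosphatases, Dusp2 was higher and Dusp6 and Jun lower (15.8%, against 6.63% of all genes). Dusp2 (chr2:127336159-127338376, plus strand), a nuclear phosphatase of MAP kinases, stood at 1050 and 521 CPM against 247 and 219 CPM (log2 fold change 1.76 ± 0.31 SE, adjusted p = 0.0233), and Dusp6, a cytoplasmic phosphatase of ERK, at 30.5 and 12.3 CPM against 70 and 115 CPM. Jun lost its call without S5a RV 2 (adjusted p = 0.0619). In the MYC network, Mxi1, a MYC antagonist, was higher and Myc lower, and the Mxi1 call was lost without S5a RV 1 (adjusted p = 0.0877), S5a RV 2 (adjusted p = 0.0819) or Ctl RV 2 (adjusted p = 0.065).

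**Figure D5:**
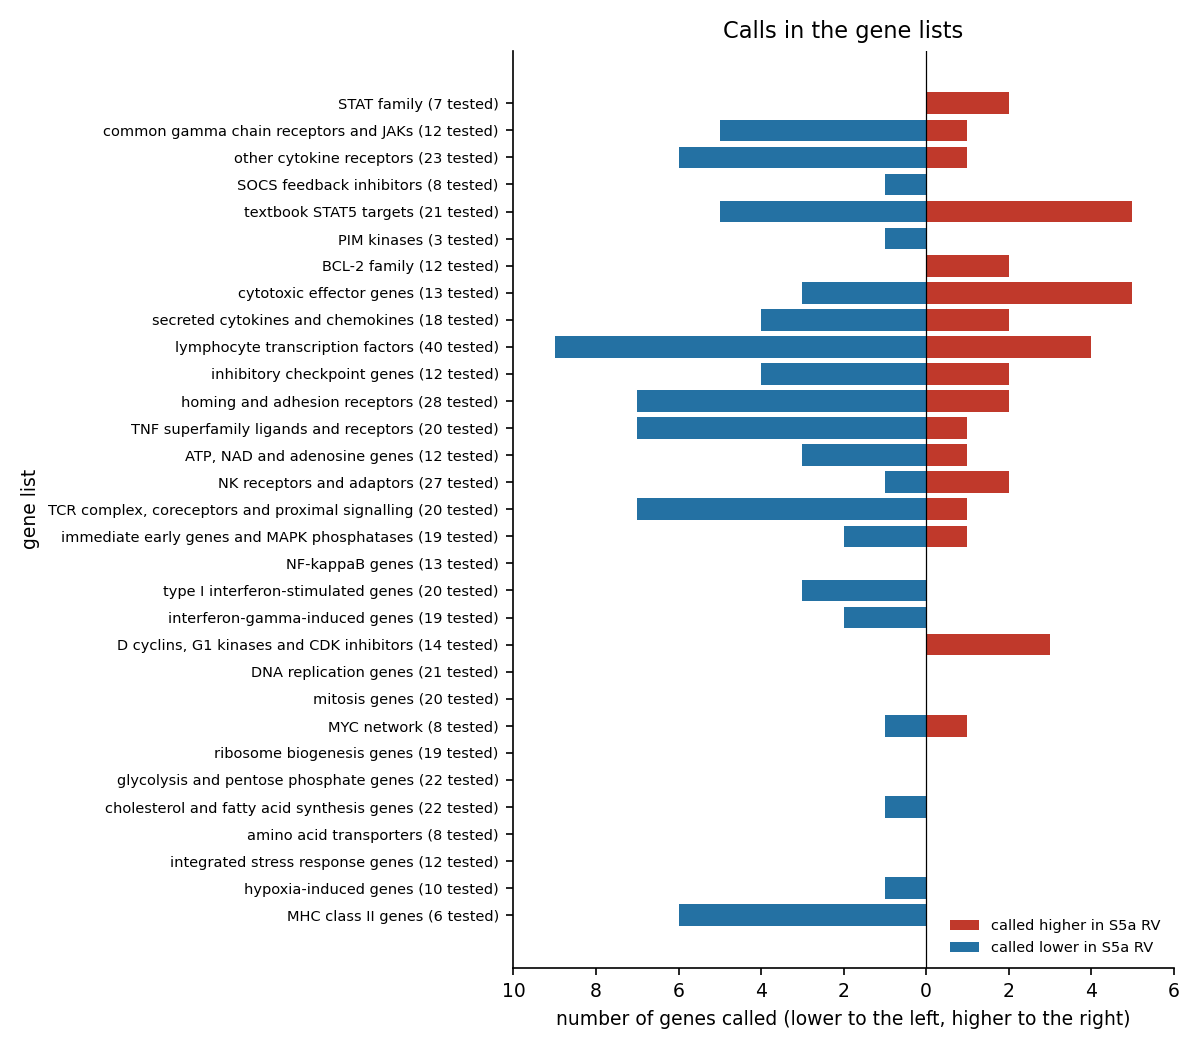
Number of genes called higher (red, to the right) and lower (blue, to the left) in S5a RV (horizontal axis) in each of 31 gene lists (vertical axis, with the number of members tested). Lymphocyte transcription factors hold the most lower calls (9), textbook STAT5 targets and cytotoxic effector genes the most higher calls (5 each), and 7 lists hold none.

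The genes with the largest differences among well-measured calls include several of low level and few of known lymphocyte function. The 12 higher genes were Anxa8, Sorcs2, Gzmb, Gp1bb, Cx3cr1, Stag3, Trim16, Stat5a, C130046K22Rik, Adrb1, Rhpn1 and Cdh22. Anxa8 (chr14:34085981-34100571, plus strand), an annexin that binds phospholipids, led them at 23.3 and 21.4 CPM in S5a RV and at 1.55 and 1.32 CPM in Ctl RV (log2 fold change 3.95 ± 0.24 SE, adjusted p = 0.00314). Adrb1, the beta-1 adrenergic receptor, was at 32.7 and 15.3 CPM against 2.4 and 2.97 CPM, and Gp1bb, a chain of the platelet receptor for von Willebrand factor, at 21.5 and 15.4 CPM against 1.94 and 1.07 CPM. Trim16 missed the threshold in DESeq2 (adjusted p = 0.159) and without S5a RV 1 (adjusted p = 0.122) or S5a RV 2 (adjusted p = 0.0822). Cdc14b, a phosphatase of the cell cycle, was higher as well (44.7 and 48.7 CPM against 22.3 and 12.8 CPM), and lost its call without S5a RV 1 (adjusted p = 0.065) or S5a RV 2 (adjusted p = 0.0579).

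The 12 lower genes were Gm5779, Iigp1, Dll1, P2rx7, Atp9a, Cd63, Tlr1, Trat1, Mapk12, Dscam, Btk and Asb2. Gm5779 (chr10:75344472-75353033, plus strand), a transcribed processed pseudogene, stood at 0.853 and 0.37 CPM in S5a RV and at 40.2 and 28 CPM in Ctl RV (log2 fold change -5.69 ± 0.36 SE, adjusted p = 0.0033). In the other CD8 table it ran from 0.169 to 126 CPM over the 16 WT libraries (median 57.8), from 31.4 to 79.5 CPM over the 16 AAB libraries (median 60.2) and from 7.85 to 55.7 CPM over the 16 BBA libraries (median 27.8), and reads of its parent gene could be counted for it. Dll1 (chr17:15367354-15376872, minus strand), a ligand of NOTCH, was at 1.34 and 2.59 CPM against 17.8 and 62.6 CPM. Tlr1, a receptor for bacterial lipopeptides, was at 0.305 and 1.57 CPM against 10.9 and 20.8 CPM, and Btk, a kinase of B and myeloid cells, at 0.609 and 0.924 CPM against 10.9 and 8.75 CPM, beside the lower B cell and myeloid markers. Dll1, P2rx7, Atp9a, Cd63, Mapk12 and Dscam lost their calls without S5a RV 1 (adjusted p = 0.0615 to 0.149), and P2rx7, Atp9a and Dscam also without S5a RV 2 (adjusted p = 0.0605 to 0.0788).

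Genes that differed by Stat5 genotype in CD8+ memory cells were then followed in the transduced cells. In central memory cells (Tcm) cultured with IL-15, with 2 libraries a genotype, edgeR called 276 of 9856 genes higher in WT than in AAB cells (2.8%) and 1215 higher in WT than in BBA cells (12.3%), which lack both copies of Stat5b and 1 of Stat5a. These 2 comparisons share their WT libraries. Of the 257 genes higher in WT than AAB that were tested in the transduced cells, 12 were higher in S5a RV (4.67%, against 2.21% of all genes) and 10 lower (3.89%, against 4.42%), with a median log2 fold change of -0.13. The 12 include Stat5a and Stat5b, of which AAB cells lack alleles by design, and C130046K22Rik, and without these 3 genes 9 of 254 were higher (3.54%). Of the 1166 higher in WT than BBA, 34 were higher (2.92%) and 28 lower (2.4%), with a median of -0.08. Members called in the same direction included Gzmb and Bcl2. Gzmb, at 27.1 and 21.1 CPM in WT and at 1.44 and 1.62 CPM in AAB memory cells, had a log2 fold change of 4.01 there and of 3.86 in S5a RV over Ctl RV. Bcl2 had log2 fold changes of 0.66 (WT over AAB), 1.82 (WT over BBA) and 1.26 (S5a RV over Ctl RV). Others were called in opposite directions: Il2ra had log2 fold changes of 1.86 (WT over AAB) and -1.61 (S5a RV over Ctl RV), Tnf of 2.20 and -2.81, Lta of 2.27 and -1.96 and Myc of 1.39 and -0.76.

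Genes lower in WT than in AAB memory cells included a larger share called lower in S5a RV. Of 163 such genes (1.65%), 118 were tested in the transduced cells, where 37 were lower (31.4%, against 4.42% of all genes) and 6 higher (5.08%, against 2.21%), with a median log2 fold change of -0.44. With the replicate number as a block in the memory fit, 333 genes were lower in WT and 46 of 239 tested were lower in S5a RV (19.2%). The genes lower in both included P2rx7, Gzmm, Dusp6, Cxcr5, Tox and Gpr183. Prf1, Cx3cr1 and E2f2 were lower in WT than AAB memory cells and higher in S5a RV. None of the 37 belonged to the marker lists of B, T, myeloid, dendritic or mast cells or to the MHC class II list, although Igj, Cd72 and H2-Oa, which are known from B cells and were picked out after their values were seen, were among them. B cell markers summed to 93.4 and 177 CPM in the WT memory libraries and to 73.5 and 206 CPM in the AAB ones. In the BBA memory libraries they summed to 216 and 441 CPM. The part of B cell transcripts in this overlap was not tested. In the memory fit, 1097 genes (11.1% of those tested there) were lower in WT than BBA, and 867 of them were tested in the transduced cells. There 103 were lower in S5a RV (11.9%, against 4.42% of all genes) and 25 higher (2.88%, against 2.21%).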

How the data were processed

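The authors deposited raw, whole-number read counts for each gene symbol. According to the methods, poly(A)+ RNA was sequenced as single-end 50 bp reads, aligned with TopHat2 and counted with HTSeq; the methods name mm10 and the submitters' processing notes mm9, and annotation and strand use are not given in the sources used here. Coordinates are those of GENCODE vM21 (GRCm38). Reads on no gene (46% to 47% of each column) and reads with several positions (20% to 21.2%) stayed out of totals and tests. A re-implemented HTSFilter rule kept genes above 58.4 normalized counts in some library. edgeR 4.0.16 (R 4.3.3) fitted the 4 libraries with TMM and its quasi-likelihood F-test; called means over 1.5-fold at a Benjamini-Hochberg adjusted p under 0.05. The coefficient of variation between libraries was 0.157. The SE is the log2 fold change divided by the root of F. Lineage and Stat5 values use plain totals. DESeq2 1.42.0, other filters and leaving out each library were tried, and scripts were tested on simulated counts. Same-numbered memory libraries deviated together (correlations 0.332 to 0.431); the transduced libraries did not (-0.0235). Genes, lists and tests were chosen with earlier results of these data known: named are Stat5a, Stat5b, 15 genes the study names, the 12 largest non-overlapping calls a direction at a mean of 50 normalized counts or more, and up to 6 called members a direction of each list, with further members needed to describe it. Columns of the CD4 table were not used. Some members of the lists are counted with them but are not reported here by name.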

Additional observations from a re-analysis of the deposited data

Results flagged for a closer look

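Each group held 1 male and 1 female library, and 4 tested genes of the lists differed by more than 1.5-fold in opposite directions in the male and the female pair. Each pair is 1 library against 1, so the difference between the pairs was not tested. Itgax, an integrin of dendritic cells that NK cells also carry, stood at 350 and 668 CPM in the male S5a RV and Ctl RV libraries and at 824 and 380 CPM in the female ones, a difference between the pairs of 2.05 on the log2 scale. Socs1, a feedback inhibitor of JAKs, stood at 63.3 and 26 CPM in the male and at 27.3 and 43.3 CPM in the female pair, a difference of -1.93. For Slc16a1, a lactate transporter, the difference was 1.69 and for P2ry10, a lysophospholipid receptor, 1.29. None of these genes was called between the groups.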

How the results depend on the processing

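The 230 higher and 461 lower genes became 521 and 1088 with every gene of at least 1 count tested, 5 and 7 under Bonferroni adjustment, and the higher genes 129 at more than 2-fold. Leaving out 1 library at a time gave 82 to 312 higher and 162 to 578 lower genes, lowest without S5a RV 1, which kept 236 of the 691 calls; a lone library is then assumed to vary like the other group's. DESeq2 called 335 and 682 and raised the higher members of the fixed lists from 29 to 44, and the filterByExpr filter gave 273 and 585 genes. Of the 691 calls, 95.9% to 99.3% were kept in the same direction by the other filters, DESeq2, its size factors, the newer quasi-likelihood fit and a term for sex. A term for the male and the female library of each group, added after seeing the data, acts as a replicate block and gave 281 and 593 calls. It ended the calls of Tyk2 and Cd247 among 116 named calls. The titles themselves pair no transduced libraries, since 1 Ctl RV title carries no replicate number. The replicate block in the memory fit moved the share of genes higher in WT that were called higher in S5a RV to 5.03% (WT over AAB) and 3.08% (WT over BBA). No named gene reversed its direction under any alternative. Lineage sums on TMM totals stayed within the spread between libraries. The cause of these shifts was not tested, except that stricter thresholds call fewer genes by construction. Cd8a, Cd8b1 and Themis fell under the count threshold used but could be tested with the filterByExpr filter.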
